A study of Mus musculus with 2 samples.

Results

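Stretches of DNA that flank a promoter, between 1 and 5 kb from a transcription start site (TSS), hold a mixture of regulatory elements: proximal enhancers, insulator sites, start sites of minor transcripts and the shoulders of the promoter itself. DNase I cuts such elements when nucleosomes are displaced, so that a peak of cutting marks an accessible site without saying which factor opened it or which gene it serves. On the upstream side the flank is mostly spacer DNA between genes, while on the downstream side it usually lies in the first introns of the gene, through which RNA polymerase passes when the gene is transcribed.

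The members described here were the replicate 1 peaks on chromosomes 1 to 19 that a replicate 2 peak covered by 75 bp or more, whose midpoint lay over 1 kb and up to 5 kb from the nearest TSS of a protein-coding gene, outside coding-gene exons and over 500 bp from any lincRNA or antisense TSS. They numbered 8919, which was 10.6% of the 83993 shared peaks and came from 205599 replicate 1 peaks. They were thus selected on the presence of a peak in both libraries, and the side of the TSS played no part. Of all replicate 1 peaks 40.9% had such a match, and of the 20983 that met the positional conditions 42.5% did, values that follow from the rule and from which nothing is read. The working name of the set calls it intergenic, but the rule excludes exons and not introns. Only 3518 members (39.4%) lay outside every protein-coding gene body, 5037 (56.5%) lay within the body of the gene with the nearest TSS and 364 (4.08%) within that of another gene, and the set is therefore called promoter-flank peaks.

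Both libraries were DNase-seq of 1 group: facial prominences, the outgrowths that fuse into the face, from healthy B6NCrl mouse embryos at day 11.5, with males and females pooled. The labels give each of the 2 biological replicates its own biosample, and no number of embryos. There was no other condition to compare with. Peaks had a fixed width of 150 bp. The authors deposited a whole number below 150 with each as its signal value, called strength here. The sequencing depth is unknown, as is the way strength scales with it, so strengths were compared within a library only. Strength had a median of 16 over all replicate 1 peaks and 42 over all replicate 2 peaks on these chromosomes.

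The tissue label was set against marker genes by their promoters, beside the 61.8% of all protein-coding genes that had a shared promoter peak. Of 15 genes of facial mesenchyme and neural crest 14 had a shared promoter peak, as did 5 of 6 ectoderm genes, without the epithelial regulator Trp63, and 4 of 4 neural genes. Endothelial markers had one at 2 of 5, muscle markers at 2 of 3, erythroid markers on the chromosomes analysed at 0 of 3 and macrophage markers at 0 of 4. Promoter-flank members were present at 13 of the 15 mesenchyme and crest genes, 3 of 6 ectoderm, 3 of 4 neural, 2 of 5 endothelial, 3 of 3 muscle, 0 of 3 erythroid and 2 of 4 macrophage markers. Over all protein-coding genes 26.2% had a member, and 33.7% of those with a shared promoter peak did. In a bulk tissue, an element open in few cells and one weakly open in many cannot be told apart.

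The strongest members on each side are shown first, since they carry the upper end of the comparison of sides. Each is the mm10 forward strand in lower case, with matches to the SP/KLF box GGGCGG (the element that SP and KLF zinc finger factors bind, read on either strand) in capitals. The first 4 by mean strength rank on the upstream side were these.
Smad6, chr9:64022996-64023145: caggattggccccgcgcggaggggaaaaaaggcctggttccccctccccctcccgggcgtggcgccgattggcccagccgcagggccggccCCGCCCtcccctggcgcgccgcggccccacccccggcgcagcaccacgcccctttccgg
Bahcc1, chr11:120231516-120231665: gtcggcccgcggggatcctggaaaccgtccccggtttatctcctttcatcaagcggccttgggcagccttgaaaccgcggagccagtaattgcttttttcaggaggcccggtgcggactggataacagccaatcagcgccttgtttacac
Ptch1, chr13:63567956-63568105: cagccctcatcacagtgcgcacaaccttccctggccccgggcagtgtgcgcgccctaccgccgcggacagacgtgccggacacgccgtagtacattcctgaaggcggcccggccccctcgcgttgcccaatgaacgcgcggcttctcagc
Ptma, chr1:86525316-86525465: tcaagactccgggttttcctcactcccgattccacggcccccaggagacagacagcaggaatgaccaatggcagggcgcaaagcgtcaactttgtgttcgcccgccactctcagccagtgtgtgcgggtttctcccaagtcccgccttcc
The first 4 on the downstream side without a base in an annotated exon were these.
Mllt10, chr2:18056576-18056725: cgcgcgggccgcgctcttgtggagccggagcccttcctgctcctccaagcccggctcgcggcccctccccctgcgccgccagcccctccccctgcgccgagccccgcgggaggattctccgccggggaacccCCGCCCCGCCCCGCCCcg
Tubb5, chr17:35837136-35837285: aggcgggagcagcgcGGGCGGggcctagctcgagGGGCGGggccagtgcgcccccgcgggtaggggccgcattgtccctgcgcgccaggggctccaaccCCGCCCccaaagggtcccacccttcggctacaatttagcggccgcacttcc
Midn, chr10:80149436-80149585: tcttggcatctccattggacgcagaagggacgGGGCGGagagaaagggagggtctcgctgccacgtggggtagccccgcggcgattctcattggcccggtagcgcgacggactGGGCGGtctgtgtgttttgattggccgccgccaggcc
Elf2, chr3:51276136-51276285: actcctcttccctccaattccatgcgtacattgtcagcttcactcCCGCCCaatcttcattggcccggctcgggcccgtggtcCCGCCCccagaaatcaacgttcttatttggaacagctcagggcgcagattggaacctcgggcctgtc

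At Smad6, an inhibitor of BMP signalling, the upstream peak lay 1012 bp from the TSS with strengths of 108 in replicate 1 and 145 in replicate 2, and its sequence was 79.3% GC with 18 CpG dinucleotides. The peak upstream of Ptch1, the receptor for hedgehog ligands, lay 2296 bp from the nearest TSS inside the gene body, with strengths of 108 and 143 and 18 CpGs. That of Bahcc1, a gene for a BAH-domain chromatin protein, had 112 and 140, and that of Ptma, which encodes prothymosin alpha, 111 and 140. Downstream, an intron of Mllt10, which encodes a cofactor of the histone methyltransferase Dot1l, held a peak with 111 and 139 and 3 SP/KLF boxes in 82.0% GC sequence. Tubb5 (tubulin beta) followed with 106 and 141 and 3 boxes, Midn (midnolin) with 107 and 140 and 2 boxes, and the ETS factor gene Elf2 with 108 and 137 and 2 boxes. All 8 peaks stood in the top 1% of their own library by strength, and each had a shared promoter peak within 1 kb of its TSS. Over all members 77.4% had such a promoter peak.

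The other members among the first 10 upstream were at Igf2bp3 (strengths 108 and 142) and Cpeb4 (108 and 141), which encode RNA-binding proteins, as does Mex3b (109 and 140), at Id2, an inhibitor of basic helix-loop-helix factors (107 and 143), at the Iroquois homeobox gene Irx5 (105 and 142) and at the histone demethylase gene Kdm5b (103 and 144). On the downstream side they were at Bcl2l11 (109 and 137), which encodes the cell death protein Bim, Id3 (107 and 139), Aida, the Max-binding repressor gene Mnt (106 and 139), the synaptic scaffold gene Dlg4 (108 and 136) and 4931414P19Rik (107 and 136). The Aida peak, at percentiles of 99.8 and 98.9 of its libraries, had 44.0% GC, where the other 19 held 58.0% or more.

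Upstream members numbered 4164 and downstream members 4755, so that 46.7% lay upstream (exact 95% binomial interval 45.6 to 47.7, which covers counting error over peaks only). The sequence that met the same positional conditions was split almost evenly, with 77.4 Mb upstream and 78.0 Mb downstream (49.8% upstream). Per Mb of this eligible sequence there were 53.8 upstream and 61.0 downstream members. The peaks of each library alone gave the same order, with 121.6 ± 2.10 per Mb upstream and 153.3 ± 4.75 per Mb downstream (mean ± SD, n = 2 libraries). The order was not general: it turned among members outside gene bodies (55.3 upstream against 47.9 downstream per Mb), among those over 2.5 kb away (46.1 against 40.3), with the 50000 strongest peaks of each library (23.3 against 20.96) and where peaks had to coincide over at least 90% of their length (17.2 against 16.4).

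Most of the downstream excess lay close to the TSS. Between 1 and 2 kb there were 110.8 downstream and 71.2 upstream members per Mb, between 2 and 3 kb 55.3 and 52.2, between 3 and 4 kb 41.0 and 46.3, and between 4 and 5 kb 33.8 and 42.5. Downstream density thus fell more steeply and crossed below the upstream one. Each library alone kept the order at 1 to 2 kb, with 275.8 ± 11.0 downstream and 170.4 ± 2.85 upstream peaks per Mb, and the reverse order at 4 to 5 kb, with 88.98 ± 3.43 and 95.1 ± 3.41 (mean ± SD, n = 2).

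**Figure D1:**
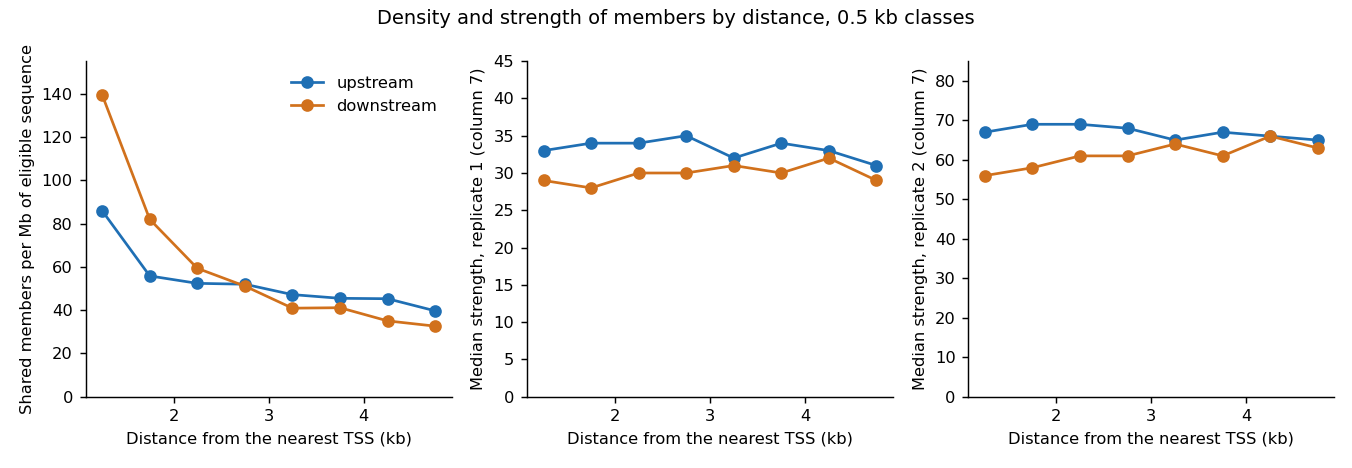
Shared promoter-flank members per Mb of eligible sequence (left) and their median strength in replicate 1 (middle) and replicate 2 (right), in 0.5 kb classes of distance from the nearest protein-coding TSS (horizontal axis, kb), for upstream and downstream members. Downstream density starts at 139.4 per Mb and ends at 32.6, upstream density at 85.9 and 39.7, and the strengths of the sides approach each other with distance.

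The sides had different surroundings. Of the upstream members 75.4% lay outside gene bodies, 17.4% inside the body of the nearest gene, at a TSS within it, and 7.13% inside another gene. Of the downstream members 90.7% lay inside the nearest gene and 7.93% outside gene bodies, the latter past the end of short genes, whose median length was 2.56 kb against 37.0 kb for the genes of downstream members inside gene bodies. Upstream and outside are thus nearly the same division, with 89.3% of the members outside gene bodies on the upstream side.

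Strength was higher on the upstream side in both libraries. In replicate 1 upstream members had a median of 33 (quartiles 22 and 51) and downstream members 29 (21 and 43). In replicate 2 the medians were 67 (46 and 89) and 60 (42 and 83). The 8919 members matched 8686 distinct replicate 2 peaks, so some replicate 2 strengths were counted more than once. The difference of medians was 4 in replicate 1 and 7 in replicate 2, each on the scale of its own library. Both differences were small beside the spread within each side. The ranges overlapped almost fully, for replicate 2 from 7 to 145 upstream and from 8 to 141 downstream. No test was made across peaks, because peaks of 1 library are not replicates, and an exact sign permutation of 2 libraries cannot give a 2-sided p below 0.5. The difference was of similar size outside gene bodies (34 against 31 in replicate 1, 67 against 61 in replicate 2) and inside them (32 against 29, 67 against 60). It was reversed among members inside the body of a gene other than the nearest, with medians of 31 in 297 upstream and 37 in 67 downstream members in replicate 1 and 67 against 71 in replicate 2.

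This difference depended on the match between libraries. Over all peaks of the window, matched or not, the medians were 19 upstream and 19 downstream in replicate 1, and 42 and 41 in replicate 2. Unmatched peaks were slightly weaker upstream, with 12 against 14 in replicate 1 and 33 against 34 in replicate 2. The rule selects on matching, and 44.8% of the upstream replicate 1 peaks of the window were matched and 40.7% of the downstream ones. Over all replicate 1 peaks the matched share was 40.9%. Without the match, the sides differed in the upper part of the distribution and not at the median. In replicate 1 the upper quartile was 34 upstream and 30 downstream, and 9.15% of upstream peaks (exact 95% interval 8.57 to 9.76) against 5.35% of downstream peaks (4.95 to 5.77) reached the top 10% of the library. In replicate 2 the upper quartiles were 67 and 59, and 8.78% (8.22 to 9.37) against 5.78% (5.38 to 6.21) reached it.

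**Figure D2:**
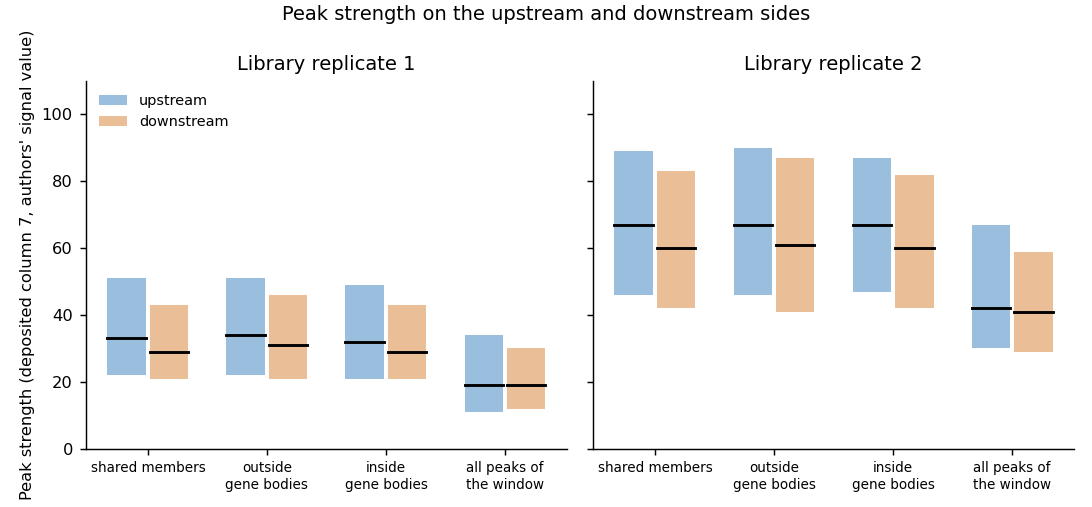
Peak strength (the authors' signal value, vertical axis) on the upstream and downstream sides in replicate 1 (left) and replicate 2 (right), for all shared members, those outside and inside gene bodies, and all peaks of the window with no match required. Boxes span the quartiles and black lines are medians. Upstream medians are 33 and 67 against 29 and 60 among shared members, while over all peaks of the window they are 19 and 42 against 19 and 41.

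The strong end was therefore described on its own. Members in the top 10% of both libraries (strengths of at least 56 and 96 in replicates 1 and 2) were 12.1% of all members, against 19.8% of all shared peaks, 51.8% of shared promoter peaks and 6.99% of shared peaks over 5 kb away. Upstream the share was 15.1% (exact 95% interval 14.0 to 16.2) and downstream 9.46% (8.65 to 10.3). Inside gene bodies it was 13.8% upstream (11.7 to 16.0) and 9.37% downstream (8.52 to 10.3), and outside them 15.5% (14.3 to 16.8) and 10.6% (7.69 to 14.2). When members were ordered by mean rank and divided into 10 classes of equal size, upstream members made up 59.3% of the strongest class and 40.7% of the weakest.

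Distance and the state of the promoter went with the size of the difference. Between 1 and 2 kb the replicate 1 median was 34 upstream against 28 downstream, and the replicate 2 median 67 against 57. Between 4 and 5 kb these were 32 against 31, and 65 against 65. Members whose nearest TSS had a shared promoter peak within 1 kb (77.4% of all) had medians of 34 upstream and 29 downstream in replicate 1 and 68 and 58 in replicate 2. The 1051 upstream and 964 downstream members without such a peak had 30 and 30, and 65 and 65. With a shared promoter peak the difference in replicate 2 was 11 at 1 to 2 kb, 13 at 2 to 3 kb, 6 at 3 to 4 kb and 1 at 4 to 5 kb, and without one it was 2.5, -1.5, 0.5 and 1. A TSS with a promoter peak in 1 library only counts as without one, so that class need not hold closed promoters only. Whether the classes with and without a shared promoter peak differ was not tested.

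Hotspots, the wider enriched regions that the authors called in each library, gave a second view of the promoter's reach. The hotspot around a member had a median length of 342 bp in replicate 1 and 385 bp in replicate 2, against 1060 and 1261 bp around shared promoter peaks. It also held a promoter peak for 12.7% of members in replicate 1 and 15.3% in replicate 2, and in both libraries for 793 members (8.89%). These joined members were the stronger ones, with upstream and downstream medians of 52 and 42 in replicate 1 and 93.5 and 76 in replicate 2. Among the 7212 members joined to a promoter in neither library the medians were 32 and 27, and 66 and 58. Joining was more frequent downstream, at 14.3% and 18.8% of members in replicates 1 and 2, than upstream, at 10.9% and 11.3%. Downstream members also lay nearer the TSS, at a median of 2107 bp against 2530.5 bp upstream. Joining was not compared at equal distance.

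Of the 5437 genes with a member 839 had members on both sides, though a gene can have several TSSs and its members can flank different ones. The strongest upstream member exceeded the strongest downstream one at 465 of these genes in replicate 1 (361 the other way, 13 ties) and at 489 in replicate 2 (337 the other way, 13 ties). In both libraries at once it did so at 411 genes, and the reverse held at 285. At the 379 genes with exactly 1 member on each side, upstream was higher at 221 in replicate 1 and 226 in replicate 2, with medians of 35 against 30 and 72 against 64. Exactly the same TSS had members on both sides in 467 cases, a division chosen after seeing the data. There the strongest upstream member was higher at 259 TSSs in replicate 1 (201 the other way) and 269 in replicate 2 (191 the other way), and in both libraries at 228 against 162 for the reverse.

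**Figure D3:**
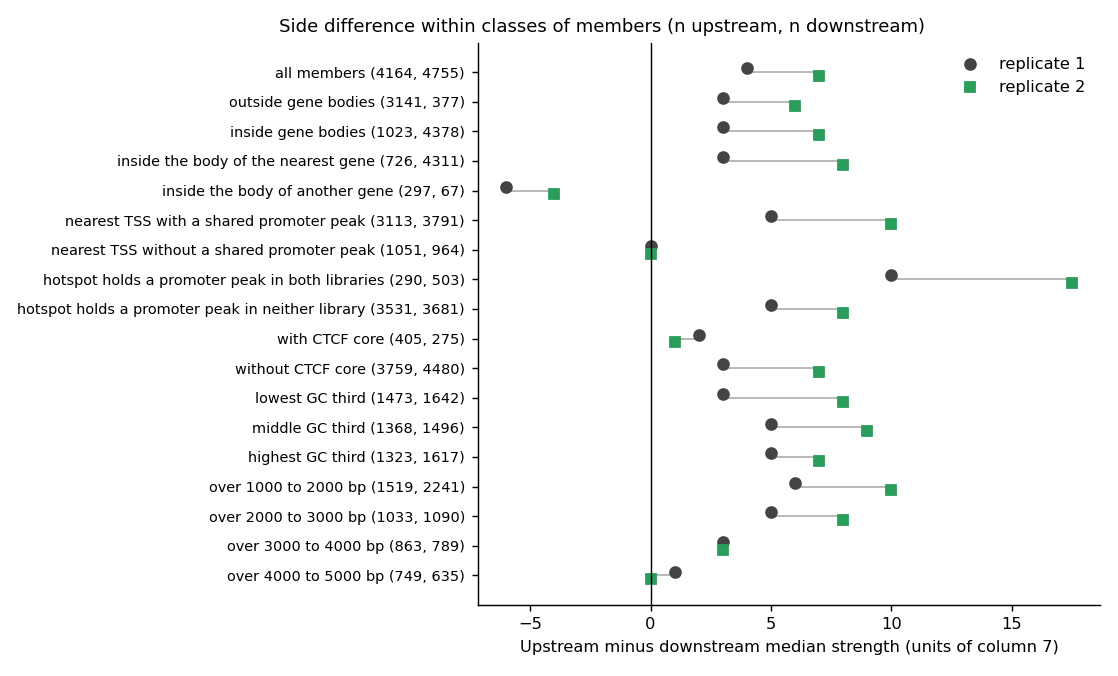
Upstream minus downstream median strength (horizontal axis, units of the authors' signal value) in replicate 1 (circles) and replicate 2 (squares) for all members and for classes of members, with the number of upstream and downstream members in parentheses. Values range from -6 and -4 inside the body of another gene, through 0 in both libraries where the nearest TSS had no shared promoter peak, to 10 and 17.5 where the hotspot also held a promoter peak.

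Sequence was not part of the rule. Members had a median GC content of 52.0% (quartiles 46.7 and 57.3), between the 49.3% of shared peaks over 5 kb away and the 64.7% of shared promoter peaks, and upstream and downstream medians were both 52.0%. A CpG observed/expected ratio of 0.6 or more was found in 19.8% of members, 70.8% of shared promoter peaks and 10.2% of shared peaks over 5 kb away. Strength rose with GC content on both sides: median GC was 60.0% in the strongest of the 10 classes and 46.0% in the weakest. The upstream excess was present in each of 3 GC classes of near-equal size, with differences of 3, 5 and 5 in replicate 1 and 8, 9 and 7 in replicate 2 from the lowest to the highest. Unmatched replicate 1 peaks of the same window held less GC, with a median of 46.0%.

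Motifs were searched as exact letters on both strands in the 150 bp of each peak. Matches to GGGCGG stood in 13.6% of members, 47.0% of shared promoter peaks, 7.58% of shared peaks over 5 kb away and 3.85% of unmatched peaks of the window. Within the members the share was 35.7% in the strongest 10% and 2.02% in the weakest, and it was 12.7% upstream and 14.5% downstream. The AP-2 palindrome GCCNNNGGC, bound by the neural crest regulators Tfap2a and Tfap2b, was found in 7.31% of members (16.7% at promoters, 5.76% over 5 kb away), and the E-box CANNTG, which Twist1 and its partners bind, in 56.4% (39.3% and 64.2%). The homeobox core TAATTA was in 2.74% of members (0.888% and 4.10%), the TEAD site GGAATG in 9.49% (5.93% and 10.9%) and the AP-1 site TGANTCA in 4.07% (2.09% and 4.56%). In unmatched peaks of the window the AP-2 palindrome stood in 3.66%, the E-box in 52.3% and the TEAD site in 8.21%. The AP-1 site, at 4.03%, was nearly as frequent there as in members, and the homeobox core, at 3.83%, more frequent. For each of the motifs named so far the members stood between promoter and distal peaks. The CCAAT box (letters CCAAT) did not follow this order, with 17.9% of members, 21.8% of promoter peaks and 18.9% of peaks over 5 kb away. GCCNNNGGC and GGGCGG can overlap each other and follow GC content.

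The core of the CTCF motif (12 bases with degenerate positions, searched by name) differed between sides by more, relative to its frequency, than the other motifs found in at least 1% of members. CTCF is the zinc finger protein that marks insulators and the anchors of chromatin loops. Its core was found in 405 upstream members (9.73%, exact 95% interval 8.84 to 10.7) and 275 downstream members (5.78%, 5.14 to 6.49), against 9.76% of shared peaks over 5 kb away, 1.11% of shared promoter peaks and 0.0746% of unmatched peaks of the window. Outside gene bodies the share was 10.2% upstream (9.18 to 11.3) and 10.3% downstream (7.46 to 13.9), and inside them 8.21% (6.60 to 10.1) and 5.39% (4.74 to 6.10). It rose with distance, from 7.04% at 1 to 2 kb to 13.6% at 4 to 5 kb upstream and from 2.59% to 10.6% downstream. The strongest members with a core, chosen after their values were seen and without an exon base, are shown with the core in capitals, first the upstream pair and then the downstream pair.
Ybx2, chr11:69934296-69934445: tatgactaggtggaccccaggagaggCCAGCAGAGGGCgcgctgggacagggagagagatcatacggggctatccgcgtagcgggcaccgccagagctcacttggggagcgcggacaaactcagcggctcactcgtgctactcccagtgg
Dus1l, chr11:120800096-120800245: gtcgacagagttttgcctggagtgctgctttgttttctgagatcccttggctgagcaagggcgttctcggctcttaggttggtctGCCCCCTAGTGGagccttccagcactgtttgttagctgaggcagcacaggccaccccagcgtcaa
Gm14226, chr2:155019856-155020005: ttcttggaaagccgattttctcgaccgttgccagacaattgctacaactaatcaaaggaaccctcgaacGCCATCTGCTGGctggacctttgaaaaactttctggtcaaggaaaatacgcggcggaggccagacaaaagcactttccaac
Eef1b2, chr1:63181156-63181305: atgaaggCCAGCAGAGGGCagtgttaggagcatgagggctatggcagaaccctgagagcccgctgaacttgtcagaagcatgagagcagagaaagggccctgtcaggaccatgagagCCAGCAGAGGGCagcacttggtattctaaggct

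The peak upstream of Ybx2, which encodes a germ cell Y-box protein, had strengths of 83 and 126, and that of Dus1l (a tRNA dihydrouridine synthase) 85 and 120. Downstream, Gm14226 had 87 and 127, and Eef1b2, which encodes a translation elongation factor subunit, 83 and 126 with 2 copies of the core. Members with a core were stronger than those without and nearly alike on the sides. Their medians were 46 upstream and 44 downstream in replicate 1 and 82 and 81 in replicate 2, against 32 and 29, and 65 and 58, without a core. They also coincided more exactly, with identical coordinates in both libraries for 44.2% of upstream and 43.3% of downstream members with a core, against 30.7% and 25.8% without. Where the core stood on 1 strand only, it matched the direction of the gene at 209 of 405 upstream members (51.6%, exact 95% interval 46.6 to 56.6) and at 131 of 274 downstream members (47.8%, 41.8 to 53.9), so that neither direction was favoured beyond counting error.

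**Figure D4:**
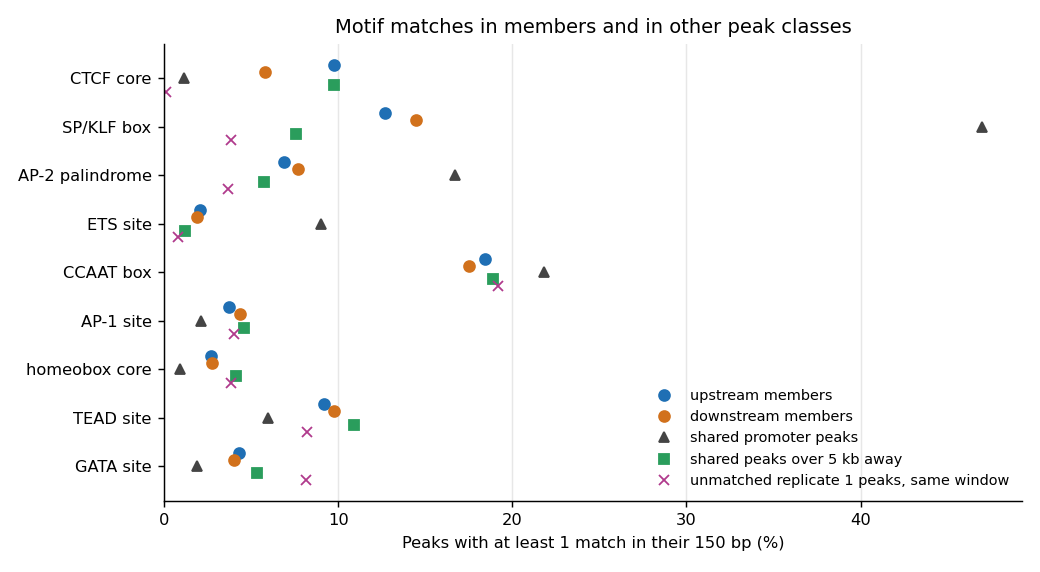
Share of peaks (%) with at least 1 match to each motif in their 150 bp, for upstream and downstream members, shared promoter peaks, shared peaks over 5 kb away and unmatched replicate 1 peaks of the same window. The SP/KLF box reaches 47.0% at promoters against 12.7% and 14.5% in members, and the CTCF core is at 9.73% upstream and 5.78% downstream.

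Some members may be promoters of transcripts outside the coding set used by the rule. Within 1 kb of a TSS of any transcript of the comprehensive annotation lay 1572 members (17.6%), 13.4% of the upstream (exact 95% interval 12.4 to 14.4) and 21.3% of the downstream ones (20.2 to 22.5). In the strongest 10% the shares were 23.4% upstream and 33.1% downstream, and in the weakest 10% 13.2% over both sides. Without all 1572, the medians were 33 upstream and 29 downstream in replicate 1 and 67 and 59 in replicate 2, as large a difference as with them. Per Mb of eligible sequence over 1 kb from every annotated TSS there were 49.6 upstream and 53.6 downstream members. Over all eligible sequence these were 53.8 and 61.0. The shares near another TSS were not set against the eligible sequence near such a TSS on each side, so they do not compare densities.

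Of 20720 protein-coding genes 26.2% had a member, 3538 of them exactly 1, and 375 (1.81% of all genes) had 4 or more. A member was found at 33.7% of the 12812 genes with a shared promoter peak and at 14.1% of the 7908 genes without one. The gene with the most members was Six3, a homeobox gene of forebrain and eye, with 13 (8 upstream and 5 downstream) on chromosome 17 between 85609076 and 85622845, with strengths of 22 to 58 (median 35) in replicate 1 and 34 to 99 (median 49) in replicate 2. Nr2f2, the orphan nuclear receptor COUP-TFII, had 12 (7 and 5) on chromosome 7 between 70356996 and 70370845, from 13 to 114 (median 32) and from 31 to 130 (median 55). Pax6, the eye and nasal placode regulator, had 12 (5 and 7), from 14 to 39 and from 26 to 55.

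The other genes of the 10 were Tnrc18, the forkhead gene Foxp1 and Mllt10 with 11 each, the COE factor gene Ebf3 and the T-box gene Tbx15 with 10 each, and the histone demethylase gene Kdm6b and Bahcc1 with 9 each. Kdm6b had the highest medians among them, 64 in replicate 1 and 107 in replicate 2. At Mllt10 the strongest peak of the downstream side stood beside weak ones, with medians of 21 and 36 and highest values of 111 and 139. All 10 had a shared promoter peak, as did 61.8% of all protein-coding genes. Counts run over all TSSs of a gene and were not divided by its eligible sequence, so they are not densities. The members at Foxp1, for example, were spread between 99159496 and 99523585 on chromosome 6. The strongest exon-free members of the 3 facial genes with the most members, Nr2f2, Tbx15 and Lhx8, show the spread in sequence between a CpG-dense flank and plainer ones, with GGGCGG in capitals.
Nr2f2, chr7:70361796-70361945: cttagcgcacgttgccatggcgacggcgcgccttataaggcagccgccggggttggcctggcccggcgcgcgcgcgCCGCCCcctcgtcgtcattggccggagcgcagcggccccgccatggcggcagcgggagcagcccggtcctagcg
Tbx15, chr3:99256976-99257125: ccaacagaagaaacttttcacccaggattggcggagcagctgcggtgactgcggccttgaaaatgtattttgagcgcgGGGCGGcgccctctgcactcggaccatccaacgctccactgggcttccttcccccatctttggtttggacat
Lhx8, chr3:154332116-154332265: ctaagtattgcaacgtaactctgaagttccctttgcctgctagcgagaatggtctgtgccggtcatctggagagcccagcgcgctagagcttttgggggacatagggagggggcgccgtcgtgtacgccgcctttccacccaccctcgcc

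These peaks had 25, 9 and 11 CpGs and strengths of 114 and 130, 52 and 97, and 41 and 67. The Nr2f2 and Lhx8 peaks lay upstream, 1278 and 1532 bp from the TSS, and the Tbx15 peak downstream at 3291 bp.

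Gene lists were described by their counts beside those of all genes, with no test. Of 68 craniofacial transcription factor genes 63 (92.6%) had a member and 31 (45.6%) had 4 or more, against 26.2% and 1.81% of all genes. They held 235 members, or 428.1 per Mb of eligible sequence against 57.4 over all genes. Nr2f2, Tbx15, the LIM homeobox gene Lhx8 (9 members, replicate 1 strengths of 34 to 61 and replicate 2 strengths of 43 to 105) and Mecom (8 members, 22 to 85 and 29 to 122) led. The median of the list was 38 in replicate 1 and 57 in replicate 2, against 31 and 63 over all members. Of these genes 95.6% had a shared promoter peak, against 61.8% of all genes, and among all genes with such a peak the density was 74.1 per Mb.

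Among 56 facial signalling genes 45 (80.4%) had a member and the density was 251.0 per Mb. The retinoic acid receptor genes Rara and Rarg had 6 members each, as did Pdgfra, the PDGF receptor of neural crest mesenchyme (5 upstream and 1 downstream, strengths of 32 to 65 and 62 to 120), and Wnt5a, which guides outgrowth, had 5 (24 to 85 and 34 to 126). Medians of the list were 41 and 79. Neural genes had a member at 17 of 18 and 546.3 per Mb, led by Six3, Pax6, the SoxB1 gene Sox2 with 9 and the LIM homeobox gene Lmx1b with 6.

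Cartilage and bone genes had a member at 16 of 18 and 164.3 per Mb, with 6 upstream of Sox6 (14 to 74 and 42 to 114) and 3 downstream of Col2a1, the main cartilage collagen gene (medians of 59 and 112), beside 2 each at Col1a1 and Sparc. Facial ectoderm genes had 11 of 24 and 107.7 per Mb, with 3 members at the splicing factor gene Esrp2, at Lama5 and at Grhl3, and 2 at Esrp1. Housekeeping genes had 13 of 29, with 3 upstream members at the translation factor gene Eef2 (54 to 90 and 95 to 125), 2 downstream at Ywhaz and 1 at Rplp0. The density of the housekeeping list was 102.6 per Mb, against 57.4 over all genes and 74.1 over genes with a shared promoter peak. Such a peak was present at 96.6% of the list.

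Lists of lineages other than facial mesenchyme and ectoderm were counted as well. Endothelial genes had a member at 8 of 15 and 124.3 per Mb, among them Flt1 (6, with strengths of only 15 to 31 and 24 to 49), Esam (3), Fli1 and Egfl7 (2 each). Muscle genes had 7 of 15 and 177.0 per Mb, led by the heart homeobox gene Nkx2-5 (8) and by Tcf21 (4), with 2 each at the myosin genes Myh3 and Myh7. Liver, pancreas and gut genes had 6 of 23, a share of 26.1%, and 69.3 per Mb, led by the forkhead gene Foxa1 (6) and by Pdx1 (2), with 1 each at Foxa2 and Cdx1, although only 8.70% of the list had a shared promoter peak. Erythroid and blood genes had 5 of 17, with 2 members at Irf8 and 1 each at Tal1, Nfe2 and Cx3cr1, and a density of 53.8 per Mb.

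**Figure D5:**
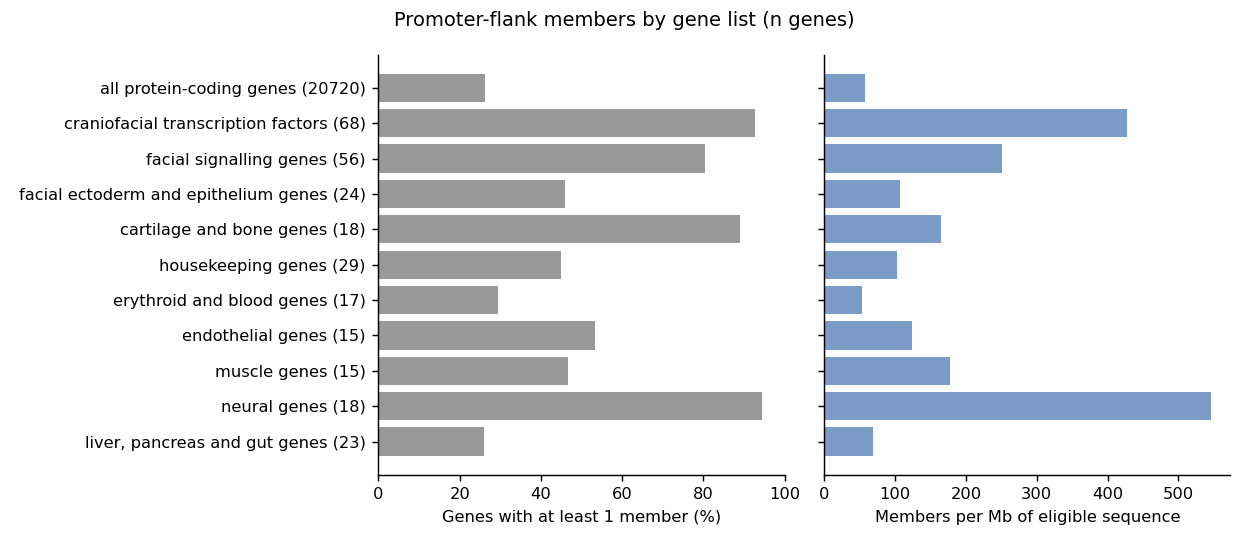
Share of genes with at least 1 promoter-flank member (left, %) and members per Mb of eligible sequence (right) for all protein-coding genes and for 10 gene lists, with the number of genes in parentheses. Craniofacial transcription factor genes reach 92.6% and 428.1 per Mb and neural genes 94.4% and 546.3 per Mb, against 26.2% and 57.4 over all genes.

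Shared or overlapping peaks lay close to each distance and overlap limit of the rule, on both sides of it. Shared peaks between 800 and 1000 bp had medians of 31 and 62, those between 1000 and 1200 bp 29 and 59, those between 4800 and 5000 bp 29 and 64, and those between 5000 and 5200 bp 34 and 69. The nearest just outside the inner edge were at Hmcn1 (44 and 91), Sec14l2 (19 and 42) and Maml1 (37 and 57), and just inside at Ell2 (35 and 58), Nell2 (22 and 42) and Tnks2 (35 and 72). At the outer edge Ubtd2 (29 and 83), Kcnv2 (18 and 75) and Cyp4f15 (29 and 66) were the last inside, and Tmcc3 (24 and 57), Sox4 (51 and 94) and Tnrc6b (68 and 102) the first outside. Peaks of the window with an overlap of 90 bp, the smallest that met the rule because both libraries place peaks on the same 20 bp grid, had medians of 23 and 48, and those with 70 bp, just outside it, 23 and 46.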

How the data were processed

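DNase-seq peaks and hotspots of 2 libraries were used as deposited. The authors called both on each library alone, on mm10, per the files' accompanying notes, and no aligner, caller or version is given in the sources used here. The deposited signal value of each peak (column 7, a whole number up to 150) has no stated unit. The deposited −log10 q of hotspots, capped at 100, was read but no result rests on it. Read totals were not used here, so depth and its error are unknown.

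From these, Python 3.11.15 scripts with numpy 2.4.6 and pandas 2.3.3 matched peaks and measured the distance from each midpoint to the nearest of 39515 TSSs of coding transcripts in the basic set of GENCODE M21, which also gave exons. Every peak and gene lay within the chromosome lengths of GRCm38.p6 (RefSeq), which supplied sequence. Eligible sequence counts every base, N excluded, that a midpoint could take under the rule. Intervals came from scipy 1.17.1. Distance, side and overlap code was tested on simulated peaks.

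The members and gene lists were chosen with earlier results of these data known. Of 289 listed genes 283 were matched, the rest not being on chromosomes 1 to 19. Named were the first 10 members by mean strength rank on each side, the 10 genes with the most members, up to 4 genes a list (some are not reported here) and 3 members at each side of each edge. Printed sequences skip chromosome 18 and peaks with an exon base, at Bcl2l11 and for 1 member at Lhx8. Alternatives varied the overlap, peak threshold, reference library, TSS set, filters and window.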

Additional observations from a re-analysis of the deposited data

How the results depend on the processing

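The upstream minus downstream difference in median strength was above 0 under 18 of 19 alternatives in replicate 1 and under all 19 in replicate 2. The exception was replicate 1 alone, with no match required, at 0. Replicate 2 alone gave 1. Other values in replicate 2 that moved were 1 with the 50000 strongest peaks of each library, 4 with TSSs of all transcripts of protein-coding genes, 10 at 1 to 2.5 kb and 3 at 2.5 to 5 kb.

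The number of members was 2609 with an overlap of 90% of the peak, 3436 with the 50000 strongest peaks, 3518 outside and 5401 inside gene bodies, 4876 at 1 to 2.5 kb and 4043 at 2.5 to 5 kb, and 20983 to 21737 with 1 library alone. The upstream share was 45.1%, 48.9% and 51.1% with overlaps of 1 bp, 75% and 90% of the peak, 52.4% with the 50000 strongest peaks, 48.8% with all transcripts, 41.1% with only the 5′ end of each gene, 89.3% outside and 18.9% inside gene bodies, 42.0% at 1 to 2.5 kb, 52.4% at 2.5 to 5 kb, and 43.8% to 44.3% with 1 library alone. It was 49.1% over 1 kb from every annotated TSS and 45.6% without CTCF cores, both chosen after seeing the data, as was the comprehensive coding set.

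Upstream density was 17.2 per Mb with an overlap of 90%, 23.3 with the 50000 strongest peaks and 120.2 to 123.1 with 1 library alone. Downstream density was 39.8 with 75%, 16.4 with 90%, 20.96 with the 50000 strongest peaks, 93.8 at 1 to 2.5 kb, 40.3 at 2.5 to 5 kb and 149.9 to 156.6 with 1 library alone. It exceeded upstream density under 16 of 20 alternatives. The cause of these moves was not tested where the alternative does not itself change the number of peaks or bases. No pairing of groups by replicate was possible because both replicates belong to 1 group. The sides were compared within each library, and also within genes and TSSs that had members on both sides.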

Other observations

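The libraries ranked the members of some gene lists differently. Over all members the median was equal to or above 75.2% of the peaks of replicate 1 and 73.1% of those of replicate 2 (percentile of strength within the library, equal values counted), and 5569 members (62.4%) had the higher percentile in replicate 1. For craniofacial transcription factor genes the median percentile was 81.0 in replicate 1 and 68.3 in replicate 2, and 189 of 235 members (80.4%) were higher in replicate 1. Neural genes gave 77.1 and 61.5, with 65 of 79 members higher in replicate 1. Endothelial genes gave 66.6 and 51.0 (14 of 17), muscle genes 73.1 and 59.2 (14 of 19) and liver, pancreas and gut genes 78.4 and 58.0 (10 of 12). Facial ectoderm genes went the other way, with 81.0 and 83.5 (7 of 19), and erythroid and blood genes gave 67.3 and 72.3 (3 of 6). Cartilage and bone genes gave 83.0 and 82.2 (16 of 30). Facial signalling genes gave 83.1 and 83.0, with 60 of 116, and housekeeping genes 77.7 and 82.3, with 12 of 18. By gene, all 12 members at Pax6 and all 11 at Mllt10 had the higher percentile in replicate 1 (medians of 70.1 and 34.3, and of 61.6 and 40.6), while Kdm6b had 4 of 9 and Foxp1 4 of 11. Neighbouring members of 1 gene are not independent, and with 1 library on each side the difference was not tested.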
